A study of Homo sapiens with 8 samples.

Results

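The genes examined here are 48 genes of homologous recombination, the Fanconi anaemia pathway and DNA break repair, listed by name from the 25369 named genes of a table of RNA sequencing counts, with earlier results of these data known. The cells were UWB1.289, a human ovarian cancer line that lacks functional BRCA1 (called BRCA1-null), and a derivative of it transduced with BRCA1 (called BRCA1+), so that each genotype is represented by 1 line. Both lines were cultured for 24 h with 0.5 uM entinostat, an inhibitor of class I histone deacetylases, or with the DMSO vehicle (control). There were 2 libraries for each of the 4 groups (BRCA1+ control, BRCA1+ entinostat, BRCA1-null control and BRCA1-null entinostat), with 31900158 to 53549893 counts per library. No label says that the replicates came from separate cultures, so the p-values measure the spread between these libraries only.

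Homologous recombination repairs a broken chromosome by copying an intact sister. Ends are sensed by the MRE11-RAD50-NBN complex and the ATM and ATR kinases, resected to single strands, prepared for strand exchange with the help of BRCA1, BRCA2 and a family of paralogues (RAD51B, RAD51C, RAD51D, XRCC2 and XRCC3), and the resulting joints are dissolved by the BLM complex or cut by nucleases. The Fanconi pathway unhooks DNA crosslinks by attaching ubiquitin to FANCD2 and FANCI, a mark that USP1 removes, whereas 53BP1, RIF1 and the Ku and DNA-PKcs proteins direct ends to joining without a template. Ovarian cancers without BRCA1 are defective in homologous recombination, and this is the setting in which PARP inhibitors are used.

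BRCA1 itself, which is not one of the 48 genes, was the check of the labels. Its levels in CPM (counts scaled to the same effective library size) were 98.9 and 92.4 in the BRCA1+ controls and 133 and 118 after entinostat, against 21.0 and 22.4 in the controls and 17.6 and 19.2 after entinostat in the BRCA1-null line. It was 4.40-fold lower in BRCA1-null than in BRCA1+ cells in DMSO (edgeR adjusted p = 5.45e-07) and 6.84-fold lower in entinostat (edgeR adjusted p = 1.78e-07). The count is per gene, so the transcripts left in the BRCA1-null libraries were not told apart by sequence. Nor were those of the transduced and the native BRCA1 in the BRCA1+ libraries. Among markers of the labelled cell type, 8 of 9 reached 1 CPM, KRT8 and EPCAM among them, and WT1 stayed below 1 CPM in all libraries. Of 7 fibroblast markers 5 were under 1 CPM in all libraries (COL3A1, DCN and LUM at 0 counts), and of 7 leukocyte markers 3 were (CD3D and MS4A1 at 0 counts). The fibroblast markers summed to 12.9 to 59.6 CPM and the leukocyte markers to 15.2 to 37.4 CPM, with the BRCA1+ control libraries lowest in both lists. The highest sum in both was in BRCA1-null entinostat. Its fibroblast sums (40.9 to 59.6 CPM) overlapped those of BRCA1-null control (29.8 to 44.4 CPM). The summed level of the 4 endothelial markers was 9.48 to 16.2 CPM in the BRCA1+ controls and 27.3 to 38.3 after entinostat, against 36.6 to 54.3 in the controls and 75.1 to 92.9 after entinostat in the BRCA1-null line, and 1 of them, CDH5, carried most of it (4.15 to 84.1 CPM, against at most 8.51 for each of the others). The part of these genes in the values below was not tested.

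Promoter sequences are shown for 5 genes that the comparisons turn on: USP1 and FANCD2, lower in BRCA1-null cells, RMI1, higher in them, TP53BP1, raised by entinostat in both lines, and XRCC3, lowered by it in BRCA1+ cells. They were taken from RefSeq (build GRCh38.p14), for the most upstream listed start of each gene, and run 5′ to 3′ on the gene's own strand from 250 bases before the start to 30 bases after it. Capitals mark matches, on either strand, to CCAAT (the CCAAT box, reverse complement ATTGG) or to TTTCCCGC (an E2F motif, reverse complement GCGGGAAA). Base 1 is the first transcribed base and base -1 the one before it.
USP1 (chr1:62436145-62436424, plus strand): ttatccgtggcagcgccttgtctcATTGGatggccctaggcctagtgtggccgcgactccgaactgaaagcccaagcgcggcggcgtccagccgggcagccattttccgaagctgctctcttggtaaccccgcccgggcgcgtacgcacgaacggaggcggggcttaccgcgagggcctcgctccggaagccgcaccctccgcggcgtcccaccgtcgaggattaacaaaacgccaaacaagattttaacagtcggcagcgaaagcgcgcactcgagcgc
FANCD2 (chr3:10026187-10026466, plus strand): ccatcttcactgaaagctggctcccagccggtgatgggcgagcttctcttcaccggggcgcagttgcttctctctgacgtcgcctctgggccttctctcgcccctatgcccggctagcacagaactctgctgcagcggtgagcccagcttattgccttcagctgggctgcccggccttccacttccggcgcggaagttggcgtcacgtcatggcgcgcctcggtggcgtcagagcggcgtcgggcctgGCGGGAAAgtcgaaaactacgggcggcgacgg
RMI1 (chr9:83980109-83980388, plus strand): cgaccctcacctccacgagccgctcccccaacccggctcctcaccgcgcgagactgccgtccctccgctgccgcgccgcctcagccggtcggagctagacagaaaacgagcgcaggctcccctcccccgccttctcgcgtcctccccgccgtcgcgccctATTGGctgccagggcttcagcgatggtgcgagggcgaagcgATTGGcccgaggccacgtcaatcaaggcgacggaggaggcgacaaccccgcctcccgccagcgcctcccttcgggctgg
TP53BP1 (chr15:43510611-43510890, minus strand): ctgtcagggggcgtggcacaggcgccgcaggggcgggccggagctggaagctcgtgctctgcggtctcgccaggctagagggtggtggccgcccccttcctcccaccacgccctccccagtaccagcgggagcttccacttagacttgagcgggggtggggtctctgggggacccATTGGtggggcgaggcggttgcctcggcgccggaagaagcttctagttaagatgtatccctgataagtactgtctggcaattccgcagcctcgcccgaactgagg
XRCC3 (chr14:103715422-103715701, minus strand): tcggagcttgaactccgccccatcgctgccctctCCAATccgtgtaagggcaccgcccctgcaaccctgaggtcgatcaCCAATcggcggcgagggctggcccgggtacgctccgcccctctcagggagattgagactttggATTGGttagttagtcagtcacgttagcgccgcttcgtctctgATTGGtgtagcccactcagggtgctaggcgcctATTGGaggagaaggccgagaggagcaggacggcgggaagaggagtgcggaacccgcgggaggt
XRCC3 had 5 CCAAT matches in this window, starting at -216, -171, -108, -66 and -33. RMI1 had 2, at -90 and -49, and TP53BP1 had 1, at -75. USP1 had 1 at -226 and a further match that began at base 30 and ran past the printed stretch. FANCD2 had no CCAAT match and 1 E2F match that began at -2.

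Of the 48 genes 40 had a RefSeq promoter window of 300 bases, 39 under the same symbol and MRE11A under MRE11. RAD54B, FANCI, WRN, RMI2, NBN, DNA2, XRCC5 and PRKDC were not matched. A CCAAT match was present in 19 of the 40 windows (47.5%), beside 35.7% of the windows of all 27305 genes in the RefSeq set. Either E2F motif (TTTCCCGC or TTTGGCGC, reverse complement GCGCCAAA) was found in 5 of 40 (12.5%), namely XRCC2, DMC1, FANCC, FANCD2 and XRCC6, beside 2.31% of all windows. The NRF1 motif GCGCATGC (reverse complement GCATGCGC) was in 4 (XRCC2, SLX4, XRCC6 and LIG4; 10%, beside 3.29%). The CHR motifs TTTGAA (reverse complement TTCAAA) and TTCGAA were in 5 (FANCC, UBE2T, ATM, RIF1 and POLQ; 12.5%, beside 16.7% for either). No motif contains another, and a match describes letters in the window only.

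All 48 genes were measured and all passed the filter on low counts. The genes differed widely in level when counts were also divided by transcript length. XRCC6 and XRCC5, the Ku70 and Ku80 subunits that bind broken ends, and PRKDC, the catalytic subunit of DNA-PK, stood highest with means over the 8 libraries of 169.7, 109.4 and 82.2 CPM per kb. FANCI (36.4), UBE2T (33.0), USP1 (30.5), ERCC1 (30.2) and FANCL (27.2) followed on the same scale. The median of the 48 genes was 8.69 CPM per kb, 12 genes were above 20 and 17 were below 5. DMC1, the meiotic recombinase, was the lowest at 0.561 CPM per kb, with 494 counts over the 8 libraries and 0.937 to 1.86 CPM in each. The next lowest were RAD51B, a strand-exchange paralogue (1.54), and SLX4, the scaffold of the structure-selective nucleases (1.62). No gene was at or under the floor of 3 counts in any group.

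**Figure D1:**
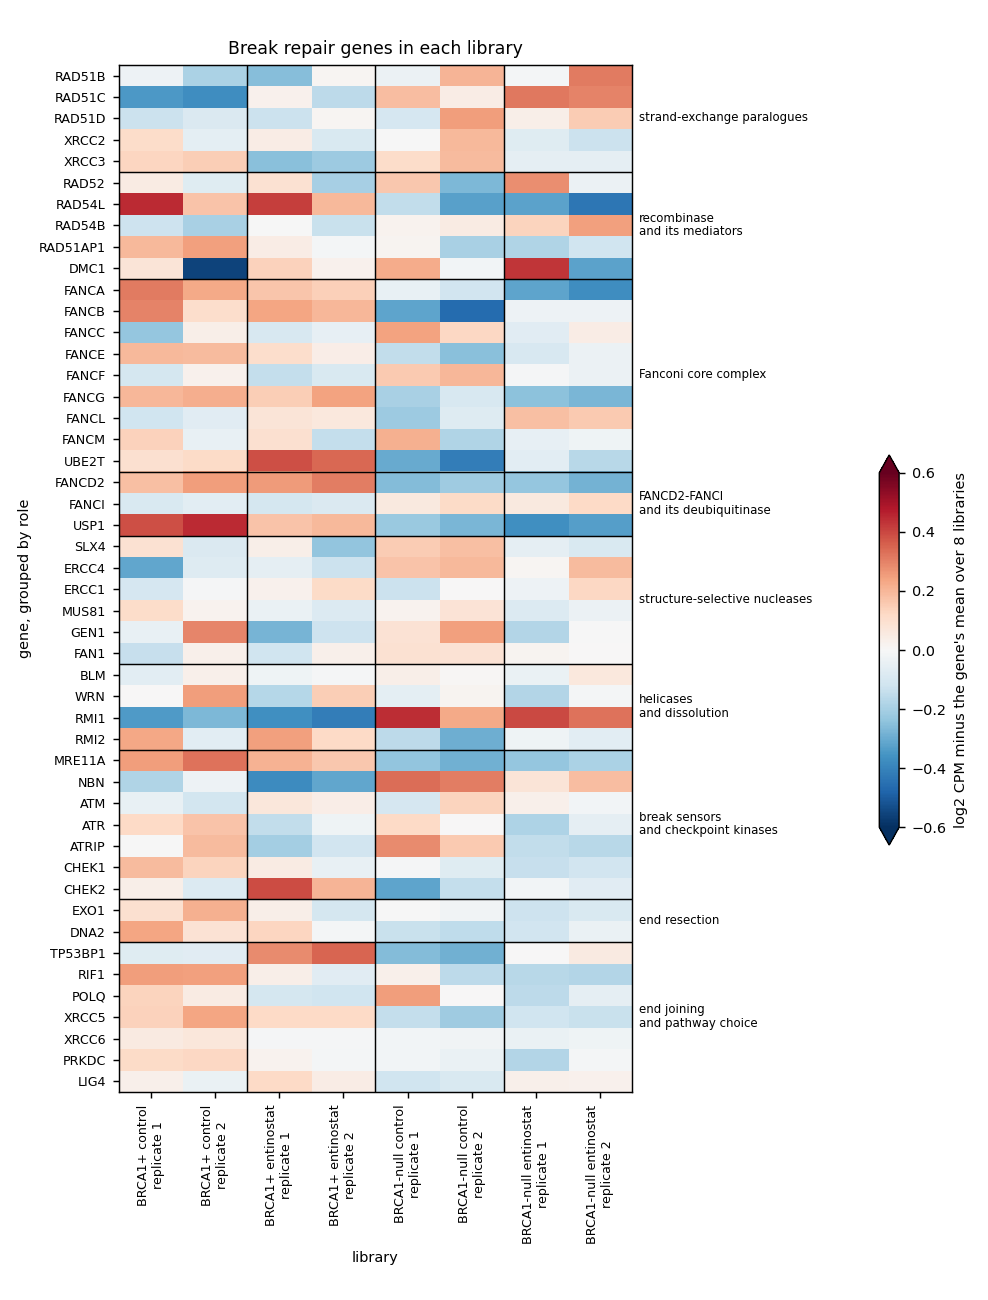
Heat map of the 48 repair genes (rows, grouped by role) in the 8 libraries (columns, grouped by line and treatment). Colour gives log2 CPM minus the gene's mean over the 8 libraries, from blue (lower) through white to red (higher). The columns on the left and on the right differ for genes such as USP1, RAD54L, FANCD2, RMI1 and NBN, whereas XRCC6, BLM and ERCC1 stay pale throughout.

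The first comparison asked how the 2 lines differed without drug. Of the 48 genes 20 were called in DMSO at an edgeR adjusted p under 0.05 (41.7%), beside 42.2% of all 17714 genes tested. Of these, 5 were higher in BRCA1-null cells (10.4%, beside 21.1% of all genes called higher) and 15 were lower (31.2%, beside 21.0% of all genes called lower). The median log2 fold change of the 48 genes was -0.04, and that of all genes tested was 0.01. In entinostat 15 genes were called between the lines (31.2%, beside 39.4% of all genes), 5 of them higher (10.4%, beside 20.5%) and 10 lower (20.8%, beside 18.9%). The share of repair genes called was thus near the share over all genes in DMSO and below it in entinostat. Bulk libraries cannot tell fewer cells that express a gene from less RNA per cell.

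The 13 genes called in both treatments had the same direction in each, and they make up 65.0% of the DMSO calls and 86.7% of the entinostat calls. The matching overlap over all genes was not counted, so these shares do not set the repair genes apart. FANCA, FANCD2, FANCG, MRE11A, RAD54L, TP53BP1, UBE2T, USP1 and XRCC5 were lower in BRCA1-null cells, and FANCI, NBN, RAD51C and RMI1 were higher. The treatments have no libraries in common in these comparisons, but all 8 libraries share 1 estimate of the spread. Fewer repair genes were called in DMSO without BRCA1-null control replicate 2 or BRCA1+ control replicate 1, and fewer were called higher. In entinostat fewer were called higher without BRCA1+ entinostat replicate 2 or BRCA1-null entinostat replicate 2. Over all genes fewer were called without each of these libraries too, so these losses do not set the repair genes apart.

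**Figure D2:**
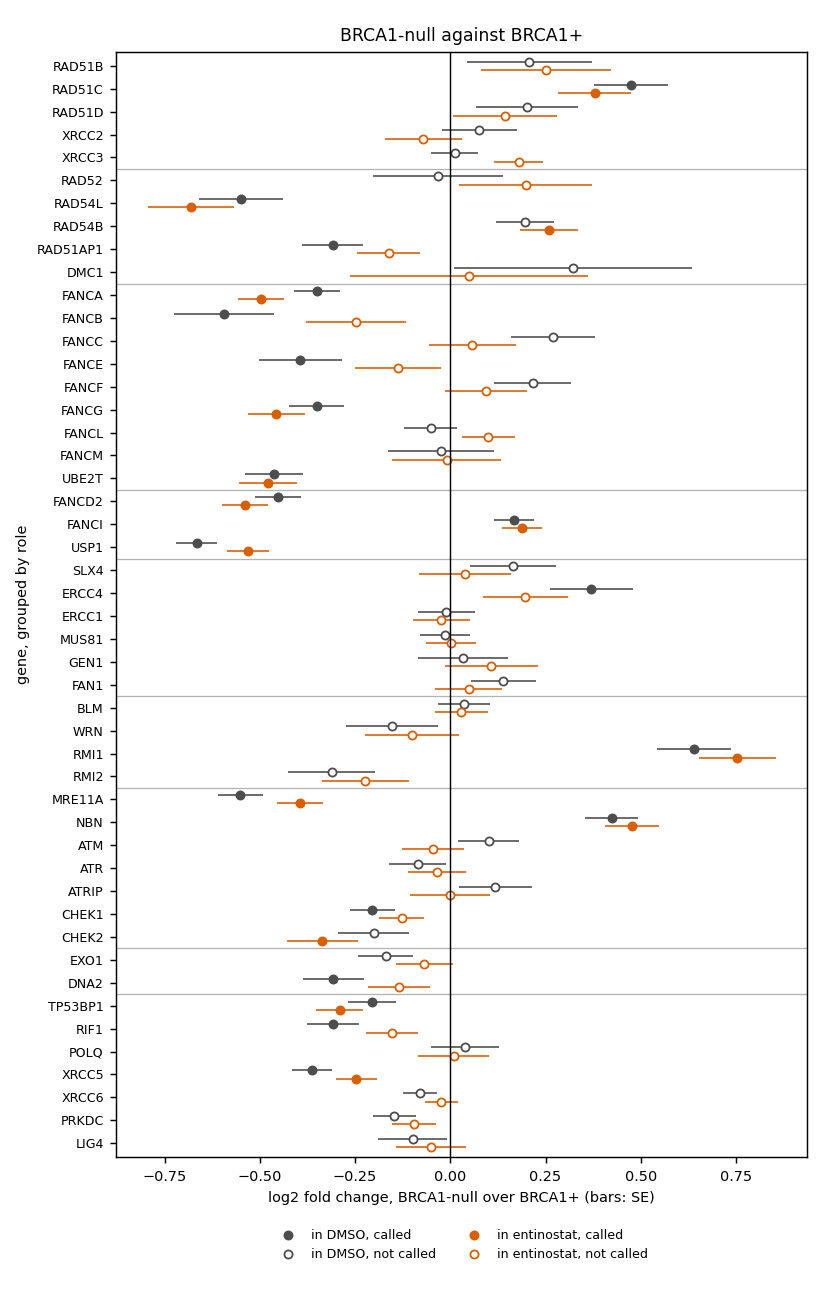
Log2 fold change of each repair gene in BRCA1-null over BRCA1+ cells (x axis), in DMSO (grey) and in entinostat (orange), with bars for the SE of the edgeR fit; filled points were called at an adjusted p under 0.05 and open points were not. RMI1 lies farthest to the right in both treatments, and USP1 (DMSO) and RAD54L (entinostat) lie farthest to the left.

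In the ubiquitin cycle of FANCD2 and FANCI 3 of 3 genes were called between the lines in each treatment, beside 42.2% of all genes in DMSO and 39.4% in entinostat, and the call of FANCI was lost without any of several single libraries. USP1, the deubiquitinase of FANCD2 (hg19 chr1:62901975-62917475, plus strand), was at 164 and 171 CPM in the BRCA1+ control libraries and at 107 and 104 in BRCA1-null control. With entinostat its levels were 141 and 143 CPM in BRCA1+ and 97.05 and 99.5 in BRCA1-null cells. Every BRCA1-null library thus lay below every BRCA1+ library, and entinostat libraries lay below the controls of their own line. The difference between the lines was 1.59-fold in DMSO (log2 fold change -0.67 ± 0.054 SE, edgeR adjusted p = 2.24e-05) and 1.45-fold in entinostat (-0.53 ± 0.055, edgeR adjusted p = 8.42e-05). FANCD2, which carries the ubiquitin mark at crosslinks (hg19 chr3:10068113-10143614, plus strand), was at 81.2 and 85.1 CPM without and 85.4 and 88.5 with entinostat in BRCA1+ cells, against 59.7 and 61.7 without and 61.0 and 58.7 with it in BRCA1-null cells. It showed no overlap between the lines. It was 1.37-fold lower in BRCA1-null cells in DMSO (-0.45 ± 0.060, edgeR adjusted p = 0.000361) and 1.45-fold lower in entinostat (-0.54 ± 0.061, edgeR adjusted p = 0.000142). FANCD2 shares 20611 bases with FANCD2OS on the opposite strand, for which the table holds 703 counts in all.

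FANCI, the partner of FANCD2 in the clamp that is ubiquitinated, went the other way. Its levels were 162 and 165 CPM in BRCA1+ control and 179.7 and 187 in BRCA1-null control libraries, a 1.12-fold difference (log2 fold change 0.17 ± 0.052, edgeR adjusted p = 0.0299). The entinostat libraries were at 160.2 and 162 CPM in BRCA1+ and 179.9 and 187 in BRCA1-null cells (0.19 ± 0.053, edgeR adjusted p = 0.0195). The groups did not overlap, but the call in DMSO was lost without BRCA1+ control replicate 1 (edgeR adjusted p = 0.127) or 2 (0.076), BRCA1+ entinostat replicate 1 (0.0535) or 2 (0.0536), or BRCA1-null control replicate 2 (0.163). The call in entinostat was lost without BRCA1+ entinostat replicate 1 (edgeR adjusted p = 0.121) or 2 (0.0894) or BRCA1-null entinostat replicate 2 (0.104). FANCI shares 827 bases of its span with POLG on the opposite strand, and POLG was also higher in BRCA1-null cells (log2 fold change 0.56 in DMSO, edgeR adjusted p = 0.000324). Whether the counting used strand is not given in the sources used here, so reads from the shared stretch could not be assigned.

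The Fanconi core complex is the ubiquitin ligase that marks FANCD2 and FANCI. It was listed as 9 genes together with UBE2T, the ubiquitin-conjugating enzyme that works with it. Among these, 5 were lower in BRCA1-null cells in DMSO (55.6%, beside 21.0% of all genes) and 3 in entinostat (33.3%, beside 18.9%). None was higher. UBE2T (hg19 chr1:202300785-202311094, minus strand) was at 31.5 and 31.9 CPM in BRCA1+ control and 38.5 and 37.4 in BRCA1+ entinostat libraries. In BRCA1-null cells it was at 23.9 and 22.1 CPM in control and 28.2 and 26.3 in entinostat. The lines did not overlap, and the difference was 1.38-fold in DMSO (-0.46 ± 0.076, edgeR adjusted p = 0.00125) and 1.39-fold in entinostat (-0.48 ± 0.076, edgeR adjusted p = 0.000991). Its span lies within those that the table gives for SRGAP2D and FAM72C, each longer than 5 Mb.

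FANCA, the subunit most often mutated in Fanconi anaemia (hg19 chr16:89803959-89883065, minus strand), was at 101 and 95.2 CPM (BRCA1+) and 78.8 and 75.01 (BRCA1-null) in the controls, and 91.2 and 89.7 (BRCA1+) and 65.3 and 62.8 (BRCA1-null) in the entinostat libraries. The 4 groups did not overlap, and BRCA1-null entinostat was the lowest. It was 1.27-fold lower in BRCA1-null cells in DMSO (-0.35 ± 0.060, edgeR adjusted p = 0.00159) and 1.41-fold lower in entinostat (-0.50 ± 0.061, edgeR adjusted p = 0.000241). FANCA shares 3374 bases with ZNF276 on the opposite strand. FANCG, which binds FANCA directly (hg19 chr9:35073835-35080013, minus strand), was at 36.6 and 37.0 CPM in controls and 35.3 and 37.7 with entinostat in the BRCA1+ line, and at 27.8 and 29.9 in controls and 26.9 and 26.4 with entinostat in the BRCA1-null line. All BRCA1-null libraries were below all BRCA1+ libraries, by 1.28-fold in DMSO (-0.35 ± 0.073, edgeR adjusted p = 0.00421) and 1.37-fold in entinostat (-0.46 ± 0.074, edgeR adjusted p = 0.00115).

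FANCB, an X-linked core subunit (hg19 chrX:14861529-14891184, minus strand), was at 7.23 and 6.34 CPM in BRCA1+ control and 4.73 and 4.27 in BRCA1-null control libraries. This 1.51-fold difference was called in DMSO (-0.59 ± 0.132, edgeR adjusted p = 0.00598). With entinostat the levels were 6.94 and 6.77 CPM in BRCA1+ and 5.76 and 5.77 in BRCA1-null cells, and the difference was not called (-0.25 ± 0.131, edgeR adjusted p = 0.168). FANCE, which links the core complex to FANCD2, was lower in DMSO only (-0.39 ± 0.109, edgeR adjusted p = 0.0172, against -0.14 ± 0.113 and 0.376 in entinostat). The FANCE call was lost without BRCA1+ control replicate 1 (edgeR adjusted p = 0.0614) or 2 (0.0713) or BRCA1-null control replicate 2 (0.0995). A call in 1 treatment and none in the other does not show a difference between treatments, and the interaction test of that difference called neither gene (edgeR adjusted p = 0.967 for both). FANCC, FANCF, FANCL and FANCM were not called between the lines, with log2 fold changes from -0.05 to 0.27 in DMSO.

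Among the 5 strand-exchange paralogues, which act on resected single strands, only RAD51C was called between the lines. That is 20% in each treatment, beside 42.2% of all genes in DMSO and 39.4% in entinostat. RAD51C (hg19 chr17:56769934-56811703, plus strand) was at 13.4 and 13.1 CPM in BRCA1+ control and 19.3 and 17.5 in BRCA1-null control, a 1.39-fold difference (0.48 ± 0.097, edgeR adjusted p = 0.00393). In entinostat it was at 17.3 and 15.2 CPM in BRCA1+ and 21.2 and 20.9 in BRCA1-null cells (1.30-fold, 0.38 ± 0.096, edgeR adjusted p = 0.0118). Control and entinostat libraries of BRCA1+ cells lay below those of BRCA1-null cells in each treatment. The entinostat call was lost without BRCA1-null entinostat replicate 1 (edgeR adjusted p = 0.0528) or BRCA1+ entinostat replicate 2 (0.129). RAD51B, RAD51D, XRCC2 and XRCC3 had log2 fold changes between the lines from 0.01 to 0.21 in DMSO and from -0.07 to 0.25 in entinostat. The whole span of RAD51D (20078 bases) lies within that of RAD51L3-RFFL on the same strand. RAD51L3-RFFL had 5922 counts in all, against 3547 for RAD51D, and how shared reads were assigned is not given in the sources used here.

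RAD54L, a motor protein that remodels DNA during strand exchange (hg19 chr1:46713367-46744145, plus strand), was at 74.0 and 61.2 CPM without and 72.3 and 62.2 with entinostat in BRCA1+ cells, against 49.0 and 43.3 without and 43.4 and 40.2 with it in BRCA1-null cells. The replicates of BRCA1+ cells were farther apart than those of BRCA1-null cells, and the lines did not overlap. RAD54L was 1.46-fold lower in BRCA1-null cells in DMSO (-0.55 ± 0.111, edgeR adjusted p = 0.00375) and 1.60-fold lower in entinostat (-0.68 ± 0.113, edgeR adjusted p = 0.0013). It shares 74 bases with LRRC41 on the opposite strand. RAD51AP1, which stimulates strand pairing, was lower in DMSO only (-0.31 ± 0.080, edgeR adjusted p = 0.0131), a call lost without BRCA1+ control replicate 2 (edgeR adjusted p = 0.0698) or BRCA1-null control replicate 2 (0.102). RAD54B, a relative of RAD54L, was higher in entinostat only (0.26 ± 0.077, edgeR adjusted p = 0.0239), a call lost without BRCA1+ entinostat replicate 2 (edgeR adjusted p = 0.2) or BRCA1-null entinostat replicate 2 (0.136). RAD54B shares 9241 bases with FSBP on the same strand. RAD52, an annealing protein, and DMC1 were not called in either treatment. Of these 5 genes 2 were called in each treatment (40%, beside 42.2% of all genes in DMSO and 39.4% in entinostat).

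The 2 genes of the break-sensing complex among the 48 differed in opposite directions. MRE11A, its nuclease (hg19 chr11:94150469-94227040, minus strand), was at 101 and 106 CPM (BRCA1+) and 71.9 and 69.4 (BRCA1-null) in the controls, and 97.9 and 94.8 (BRCA1+) and 72.2 and 74.2 (BRCA1-null) in the entinostat libraries. It was 1.47-fold lower in BRCA1-null cells in DMSO (-0.55 ± 0.059, edgeR adjusted p = 0.000101) and 1.31-fold lower in entinostat (-0.39 ± 0.059, edgeR adjusted p = 0.000749). NBN, the subunit that recruits ATM (hg19 chr8:90945564-90996899, minus strand), was at 73.3 and 81.4 CPM in controls and 64.1 and 67.0 with entinostat in the BRCA1+ line, and at 105 and 103 in controls and 87.9 and 94.7 with entinostat in the BRCA1-null line. Here every BRCA1-null library lay above every BRCA1+ library, by 1.34-fold in DMSO (0.42 ± 0.070, edgeR adjusted p = 0.00124) and 1.39-fold in entinostat (0.48 ± 0.071, edgeR adjusted p = 0.00072). RAD50, the other subunit of the complex and not one of the 48 genes, was not called (log2 fold change -0.14 in DMSO, edgeR adjusted p = 0.258, and 0.09 in entinostat, 0.505).

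Of the checkpoint kinases, ATM, ATR and its partner ATRIP were not called between the lines in either treatment. CHEK1, the kinase downstream of ATR, was lower in BRCA1-null cells in DMSO (-0.20 ± 0.058, edgeR adjusted p = 0.02, against -0.13 ± 0.059 and 0.117 in entinostat). CHEK2, the kinase downstream of ATM, was lower in entinostat (-0.34 ± 0.093, edgeR adjusted p = 0.0182, against -0.20 ± 0.094 and 0.115 in DMSO). The CHEK1 call was lost without BRCA1+ control replicate 1 (edgeR adjusted p = 0.0902) or BRCA1-null control replicate 1 (0.0524) or 2 (0.123). The CHEK2 call was lost without BRCA1+ entinostat replicate 1 (edgeR adjusted p = 0.112) or BRCA1-null entinostat replicate 1 (0.0529) or 2 (0.0825). Both kinases thus had negative values in both treatments, and neither had a called interaction. With MRE11A and NBN, 3 of these 7 genes were called in each treatment (42.9%, beside 42.2% of all genes in DMSO and 39.4% in entinostat). CHEK1 shares 3922 bases with ACRV1 on the opposite strand.

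RMI1, a subunit of the BLM complex that dissolves double Holliday junctions (hg19 chr9:86595637-86618987, plus strand), showed the largest increase in BRCA1-null cells of the 48 genes in both treatments. It was at 13.9 and 14.6 CPM without and 13.7 and 13.2 with entinostat in BRCA1+ cells, against 23.9 and 20.6 without and 23.1 and 22.1 with it in BRCA1-null cells. The lines were far apart relative to the replicates, at 1.56-fold in DMSO (0.64 ± 0.097, edgeR adjusted p = 0.000777) and 1.69-fold in entinostat (0.75 ± 0.100, edgeR adjusted p = 0.000371). The other members of that group were not called: BLM, the helicase, had log2 fold changes of 0.04 and 0.03 in DMSO and entinostat, WRN, a related helicase, had -0.15 and -0.10, and RMI2, the partner of RMI1, had -0.31 and -0.22. With RMI1, 1 of these 4 genes was called in each treatment (25%, beside 42.2% of all genes in DMSO and 39.4% in entinostat).

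**Figure D3:**
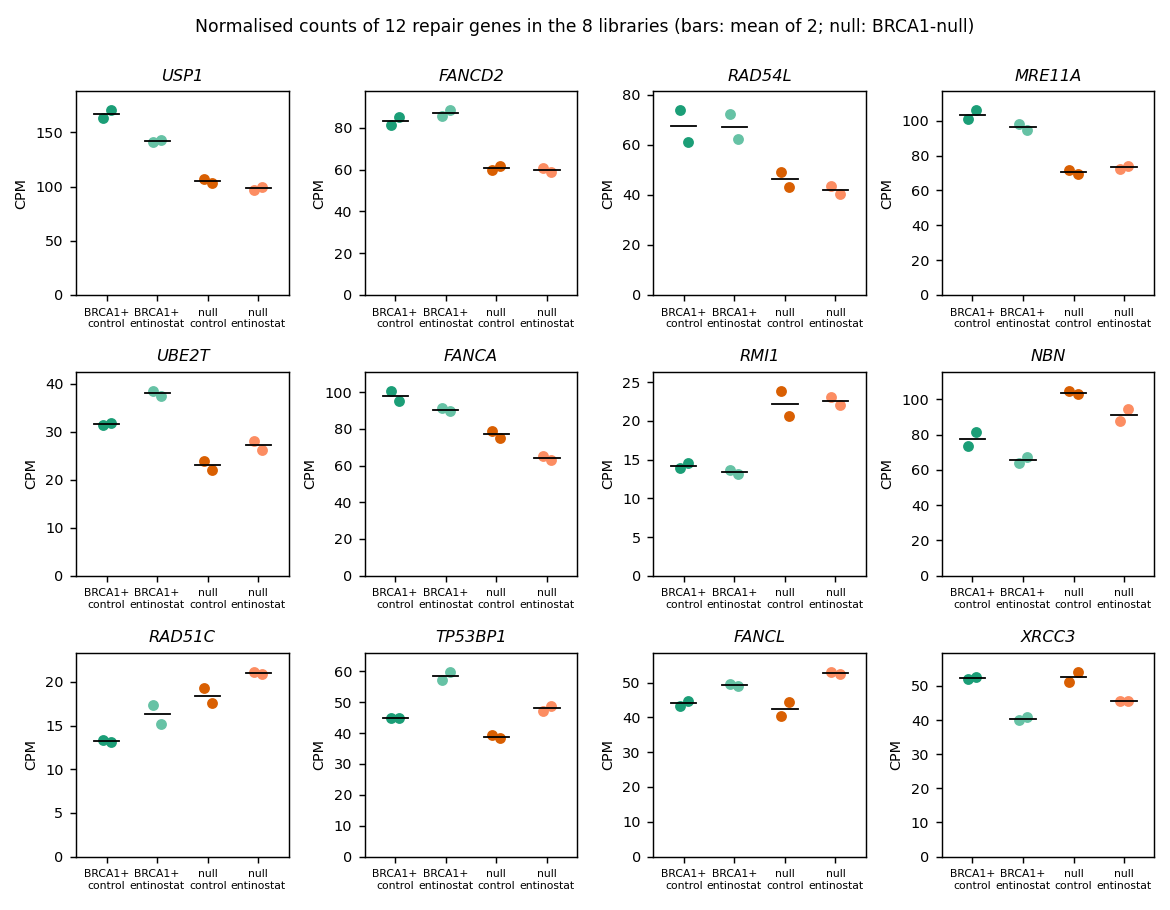
CPM (y axis, from 0) of 12 repair genes in the 4 groups (x axis; null stands for BRCA1-null), with a point for each library and a bar at the mean of 2. USP1, FANCD2, RAD54L, MRE11A, UBE2T and FANCA lie lower in BRCA1-null cells, RMI1, NBN and RAD51C lie higher, TP53BP1 and FANCL are higher with entinostat in each line, and XRCC3 is lower.

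Of the 6 nucleases that cut joints and crosslinks 1 was called between the lines in DMSO (16.7%, beside 42.2% of all genes) and none in entinostat (beside 39.4%). ERCC4, the catalytic subunit of the XPF-ERCC1 nuclease, was higher in BRCA1-null cells in DMSO (0.37 ± 0.109, edgeR adjusted p = 0.0228), and its partner ERCC1 was not called (-0.01 ± 0.076). The ERCC4 call was lost without BRCA1+ control replicate 1 (edgeR adjusted p = 0.14) or BRCA1-null control replicate 1 (0.0516) or 2 (0.0876). SLX4, MUS81, GEN1 and FAN1 had log2 fold changes from -0.01 to 0.16 in DMSO and from 0.00 to 0.11 in entinostat. Of the resection nucleases DNA2 was lower in DMSO (-0.31 ± 0.081, edgeR adjusted p = 0.0139), a call lost without BRCA1+ control replicate 1 (edgeR adjusted p = 0.086) or BRCA1-null control replicate 1 (0.0563) or 2 (0.068), and EXO1 was not called (-0.17 ± 0.073, edgeR adjusted p = 0.0899).

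In end joining and the choice between pathways, 3 of 7 genes were lower in BRCA1-null cells in DMSO (42.9%, beside 21.0% of all genes) and 2 in entinostat (28.6%, beside 18.9%), and none was higher. The share called in either direction was near that of all genes in DMSO (42.2%) and below it in entinostat (39.4%). XRCC5 was 1.29-fold lower in DMSO (-0.36 ± 0.053, edgeR adjusted p = 0.000599) and 1.19-fold lower in entinostat (-0.25 ± 0.053, edgeR adjusted p = 0.0053). Its partner XRCC6 had log2 fold changes of -0.08 ± 0.044 and -0.02 ± 0.045 and was not called, nor was PRKDC (-0.15 ± 0.057 and -0.10 ± 0.057). POLQ, the polymerase of microhomology-mediated joining, had 0.04 ± 0.090 and 0.01 ± 0.093. LIG4, the ligase of joining that depends on Ku, had -0.10 ± 0.091 and -0.05 ± 0.092. The Ku subunits, which act as a pair, were thus called for one partner only, and the difference between the partners was not tested.

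TP53BP1 (53BP1), which shields ends from resection (hg19 chr15:43699412-43802707, minus strand), was called in each of the contrasts between lines and between treatments. Its levels were 44.8 and 44.8 CPM (BRCA1+) and 39.3 and 38.5 (BRCA1-null) in the controls, and 57.3 and 59.9 (BRCA1+) and 47.2 and 48.8 (BRCA1-null) in the entinostat libraries. These contrasts share libraries. The 4 groups did not overlap, with BRCA1-null below BRCA1+ in each treatment and entinostat above control in each line. Between the lines it was 1.15-fold lower in DMSO (-0.21 ± 0.063, edgeR adjusted p = 0.0273) and 1.22-fold lower in entinostat (-0.29 ± 0.062, edgeR adjusted p = 0.00527). It was not called in DMSO with upper-quartile factors, by the DESeq2 Wald test or with only the groups compared. The DMSO call was lost without BRCA1+ control replicate 1 (edgeR adjusted p = 0.0811) or 2 (0.0926) or BRCA1-null control replicate 1 (0.0966) or 2 (0.123). The entinostat call was lost without BRCA1+ entinostat replicate 2 (edgeR adjusted p = 0.0503).

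RIF1, the effector of 53BP1 (hg19 chr2:152266397-152333860, plus strand), was at 291 and 291 CPM in controls and 251 and 234 with entinostat in the BRCA1+ line, and at 250.5 and 219.9 in controls and 219 and 217 with entinostat in the BRCA1-null line. The BRCA1+ control libraries stood above all the others. The gene was 1.24-fold lower in BRCA1-null cells in DMSO (-0.31 ± 0.068, edgeR adjusted p = 0.00577) and was not called in entinostat (-0.15 ± 0.068, edgeR adjusted p = 0.105).

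The second comparison asked what entinostat did in each line. In BRCA1+ cells 5 of the 48 genes were called (10.4%, beside 14.1% of all genes tested), 2 higher (4.17%, beside 8.15%) and 3 lower (6.25%, beside 6.0%). In BRCA1-null cells 4 were called (8.33%, beside 10.8%), 2 higher (4.17%, beside 7.57%) and 2 lower (4.17%, beside 3.19%). The medians of the 48 genes were -0.06 and -0.04 on the log2 scale, and those of all genes 0.00 and 0.02. 1 gene, TP53BP1, was called in both lines, which is 20% of the BRCA1+ calls and 25% of the BRCA1-null calls. This overlap was not counted over all genes either. No entinostat call among the 48 reached a log2 fold change of 0.5 in size. Over all genes 6.73% in BRCA1+ and 5.98% in BRCA1-null cells were called at that size.

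**Figure D4:**
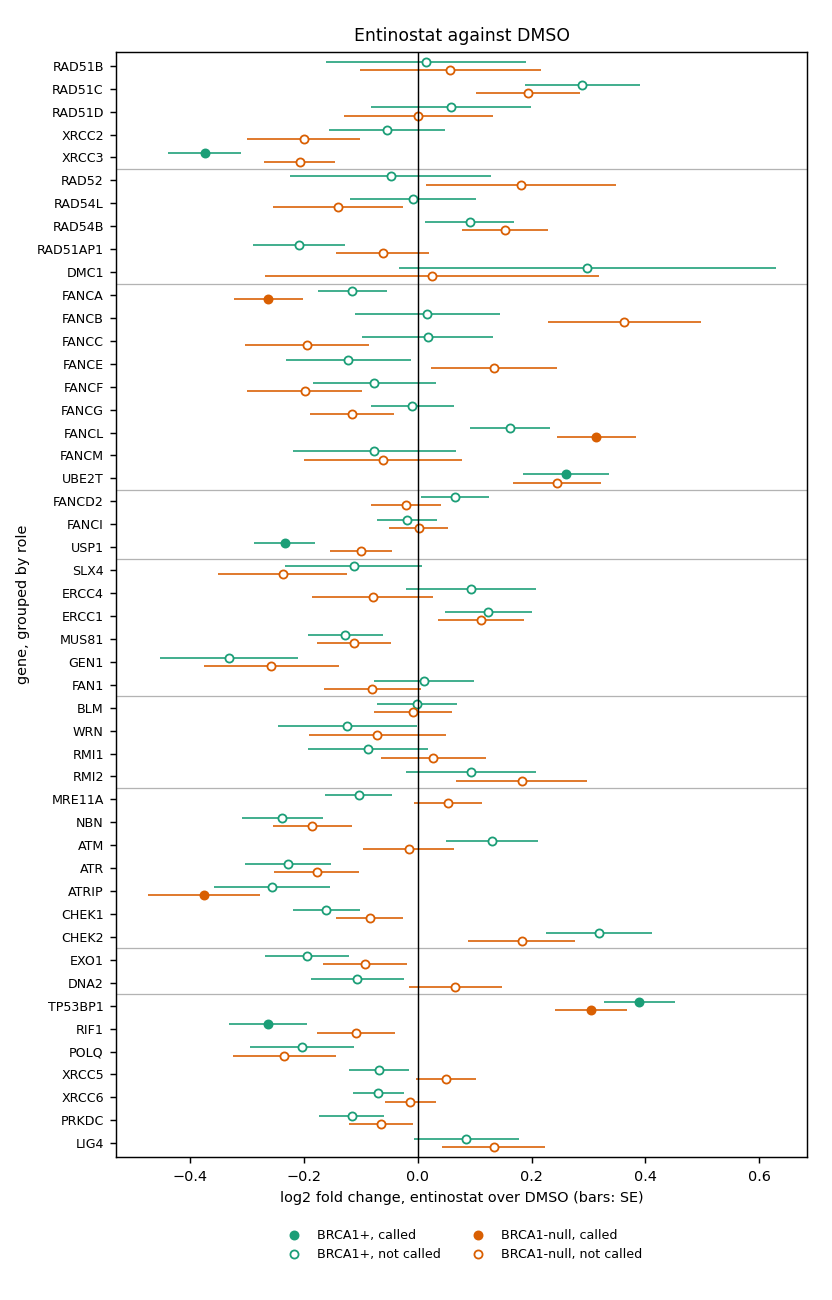
Log2 fold change of each repair gene in entinostat over DMSO (x axis), in BRCA1+ (green) and BRCA1-null cells (orange), with bars for the SE of the edgeR fit; filled points were called at an adjusted p under 0.05 and open points were not. TP53BP1 is filled in both lines, and the other 7 called genes are filled in one line each.

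Entinostat raised TP53BP1 by 1.31-fold in BRCA1+ cells (0.39 ± 0.063, edgeR adjusted p = 0.00563) and 1.23-fold in BRCA1-null cells (0.30 ± 0.063, edgeR adjusted p = 0.0187). The first call was lost without BRCA1+ entinostat replicate 2 (edgeR adjusted p = 0.0598). The second was lost without BRCA1-null control replicate 1 (edgeR adjusted p = 0.0722) or 2 (0.105) or BRCA1-null entinostat replicate 1 (0.0698) or 2 (0.0836). The log2 fold change stayed between 0.35 and 0.44 in BRCA1+ and between 0.28 and 0.33 in BRCA1-null cells under all 18 alternatives.

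XRCC3 (hg19 chr14:104163954-104181823, minus strand) was at 52.0 and 52.7 CPM without and 39.9 and 40.8 with entinostat in BRCA1+ cells, against 51.2 and 54.2 without and 45.7 and 45.7 with it in BRCA1-null cells. Entinostat libraries were below controls in both lines. The decrease was called in BRCA1+ cells (1.30-fold, -0.37 ± 0.064, edgeR adjusted p = 0.00674) and not in BRCA1-null cells (1.15-fold, -0.21 ± 0.062, edgeR adjusted p = 0.066). The call was lost without BRCA1+ entinostat replicate 1 (edgeR adjusted p = 0.0549) or 2 (0.0521). The span of XRCC3 shares 3935 bases with KLC1 on the opposite strand, and KLC1 was not called (log2 fold change 0.12 in BRCA1+ cells, edgeR adjusted p = 0.338).

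RIF1 and USP1 were also lowered in BRCA1+ cells, by 1.20-fold (-0.26 ± 0.068, edgeR adjusted p = 0.0338) and 1.18-fold (-0.23 ± 0.054, edgeR adjusted p = 0.0229). UBE2T was raised by 1.20-fold (0.26 ± 0.075, edgeR adjusted p = 0.0494), just under the threshold. RIF1 and USP1 each lost their call without any 1 of the 4 BRCA1+ libraries, with edgeR adjusted p from 0.0786 to 0.193 for RIF1 and from 0.052 to 0.133 for USP1. UBE2T lost its call without any 1 of the 8 libraries (edgeR adjusted p from 0.0532 to 0.194). In BRCA1-null cells the same contrast gave -0.11 ± 0.068 for RIF1, -0.10 ± 0.055 for USP1 and 0.24 ± 0.077 for UBE2T, none of them called.

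In BRCA1-null cells FANCL, the ligase subunit of the Fanconi core (hg19 chr2:58386378-58468515, minus strand), was raised. Its levels were 43.2 and 44.8 CPM (BRCA1+) and 40.4 and 44.5 (BRCA1-null) in the controls, and 49.5 and 49.0 (BRCA1+) and 53.2 and 52.4 (BRCA1-null) in the entinostat libraries. The 1.24-fold rise in BRCA1-null cells was called (0.31 ± 0.069, edgeR adjusted p = 0.0236), and the 1.12-fold difference in BRCA1+ cells was not (0.16 ± 0.070, edgeR adjusted p = 0.162). Without BRCA1-null control replicate 1 the FANCL value was 0.22 (edgeR adjusted p = 0.137), and the call was also lost without BRCA1-null entinostat replicate 1 (0.112) or 2 (0.0741) or BRCA1+ entinostat replicate 1 (0.0506) or 2 (0.0504). FANCL shares 678 bases with VRK2 on the opposite strand.

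ATRIP, the partner that brings ATR to single strands (hg19 chr3:48488114-48507054, plus strand), was lowered in BRCA1-null cells. It was at 15.5 and 17.7 CPM in controls and 13.5 and 14.3 with entinostat in the BRCA1+ line, and at 18.9 and 17.3 in controls and 14.01 and 13.8 with entinostat in the BRCA1-null line. The decrease was 1.30-fold in BRCA1-null cells (-0.38 ± 0.098, edgeR adjusted p = 0.0424), and in BRCA1+ cells the value was -0.26 ± 0.103 (edgeR adjusted p = 0.133). FANCA was 1.20-fold lower with entinostat in BRCA1-null cells (-0.26 ± 0.061, edgeR adjusted p = 0.0288) and had -0.12 ± 0.061 in BRCA1+ cells (edgeR adjusted p = 0.249). Without any 1 of the 4 BRCA1-null libraries both calls were lost, with edgeR adjusted p from 0.0921 to 0.151 for ATRIP and from 0.0811 to 0.121 for FANCA. ATRIP, which shares 136 bases with TREX1 on the same strand, also lost its call without BRCA1+ entinostat replicate 1 (edgeR adjusted p = 0.0661) or 2 (0.0663).

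Whether the response to entinostat differed between the lines was tested as an interaction, subtracting the BRCA1+ effect from the BRCA1-null effect. None of the 48 genes was called, beside 0.00% of all genes, and the smallest edgeR adjusted p among the 48 was 0.967. None had an unadjusted edgeR p under 0.05 either. Over all 17714 genes 827 did, which is below the share of 0.05 that uniform p-values would give. The absence among the 48 thus does not set them apart. The interaction values of the 48 genes ran from -0.27 for DMC1 to 0.35 for FANCB, with a median of 0.03, equal to that of all genes at this precision. By the DESeq2 Wald test 11 of all genes were called, and 18 by the edgeR likelihood ratio test, none of them among the 48.

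The difference between the lines was then set beside that of the genes around each member. For each of the 48 genes the median log2 fold change of the 25 nearest tested genes on each side, with the 48 left out, was taken; 45 genes had 50 neighbours and XRCC2, RAD52 and FANCA, near chromosome ends, had 32 to 45. In DMSO 18 of the 20 called genes had the sign of their neighbours' median (90%), beside 71.1% of all 7472 called genes in the table. In entinostat 15 of 15 did (100%), beside 72.3% of all 6973 called genes. With 10 neighbours on each side 17 of 20 did in DMSO (85%, beside 71.1%) and 14 of 15 in entinostat (93.3%, beside 72.8%). Across the 48 genes the value of the gene and that of its neighbours had a Pearson r of 0.68 and a Spearman rho of 0.63 in DMSO, and 0.68 and 0.61 in entinostat. These points share the same libraries, and neighbouring members share some neighbours.

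RAD51C, which was higher in BRCA1-null cells, lay among genes with a median of 0.58 in DMSO, of which 30 of 50 were called higher and 1 lower. FANCI had neighbours with a median of 0.50 (29 higher, 4 lower) and was itself at 0.17. BLM lay on the same chromosome arm as FANCI, among neighbours with a median of 0.46, and was itself at 0.04 and not called. In the other direction, FANCG had neighbours at -0.58 (33 of 50 called lower), USP1 at -0.49 (34 of 50), FANCE at -0.49, FANCD2 at -0.37 and RAD54L at -0.34. All of these had the sign of the genes around them. UBE2T and TP53BP1 were called lower among neighbours with medians of -0.05 and -0.01. ERCC4 and CHEK1 were the 2 DMSO calls whose sign differed from that of their neighbours (-0.09 and 0.12). With 10 neighbours on each side RAD51AP1 differed as well in DMSO, and CHEK2 did in entinostat. Why genes that lie together differed in the same direction was not tested.

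**Figure D5:**
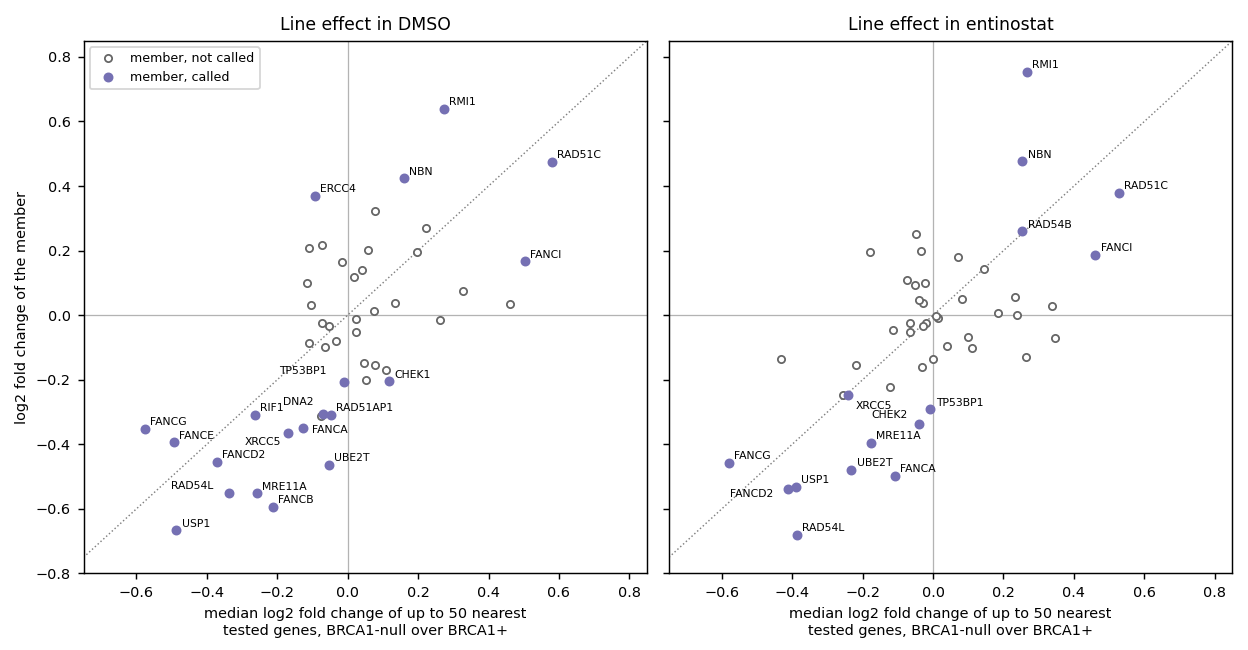
Log2 fold change of each repair gene in BRCA1-null over BRCA1+ cells (y axis) against the median of up to 50 nearest tested genes (x axis), in DMSO (left) and entinostat (right); filled points were called, and the dotted line marks equal values. In both panels called genes lie mostly in the lower left and upper right, with RAD51C and FANCI far to the right and FANCG far to the left.

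Other genes of break repair were counted for comparison, 63 by name of which 61 were tested. In DMSO 29 were called between the lines (47.5%, beside 42.2% of all genes), 10 higher and 19 lower in BRCA1-null cells. In entinostat 27 were called (44.3%, beside 39.4%), 12 higher and 15 lower. After BRCA1 the calls farthest from 0 among these 61 in DMSO were PARPBP, an inhibitor of recombination (1.14 ± 0.102, edgeR adjusted p = 3.76e-05), RNF8, a ubiquitin ligase at breaks (-1.14 ± 0.114, 6.84e-05), SWI5, a recombination cofactor (0.81 ± 0.083, 7.54e-05), and RTEL1, a helicase that takes recombination intermediates apart (0.71 ± 0.059, 2.53e-05). All of these lay farther from 0 than any of the 48 genes in DMSO. In entinostat BRCA1, PARPBP (1.28), RNF8 (-1.04), RAD9A, a checkpoint clamp subunit (0.81), and RTEL1 (0.78) led. BRCA2 and PALB2 were not called (-0.06 and 0.02 in DMSO).

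Entinostat lowered 11 of these 61 genes in BRCA1+ cells (18%, beside 6.0% of all genes) and raised 1 (1.64%, beside 8.15%). In BRCA1-null cells it lowered 4 (6.56%, beside 3.19%) and raised 1 (1.64%, beside 7.57%). In BRCA1+ cells NHEJ1, the XLF joining factor (-0.87 ± 0.153, edgeR adjusted p = 0.00777), EME2 (-0.83 ± 0.226, 0.04), a partner of MUS81, and MCM9 (-0.74 ± 0.173, 0.0243), a helicase of recombination, fell most, and BRCA1 rose (0.39 ± 0.078, edgeR adjusted p = 0.0124). CLSPN and STRA13 fell by 0.38 on the log2 scale each (edgeR adjusted p = 0.0336 and 0.0276). The BRCA1+ line was transduced with BRCA1 and the count is per gene. The rise of BRCA1 was thus not assigned to the transduced or the native gene. In BRCA1-null cells C17orf70, a Fanconi core partner (-0.54 ± 0.112, edgeR adjusted p = 0.0197), RECQL4 (-0.29 ± 0.062, 0.0228), LIG1 (-0.23 ± 0.057, 0.0356) and RTEL1 (-0.22 ± 0.058, 0.0418) fell, and BRE rose (0.30 ± 0.064, 0.0208).

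Many repair genes are expressed with the cell cycle, so 25 replication and proliferation genes were set beside the 48. In DMSO 15 of the 25 were lower in BRCA1-null cells (60%, beside 21.0% of all genes) and none was higher (beside 21.1%), with a median of -0.31. In entinostat 12 were lower (48%, beside 18.9%) and 1, MCM2, was higher (4%, beside 20.5%), with a median of -0.23. Entinostat lowered 8 (32%, beside 6.0%) and raised 1, E2F2 (4%, beside 8.15%), in BRCA1+ cells and lowered 3 in BRCA1-null cells (12%, beside 3.19%). Their summed level was 3724 to 3725 CPM in the BRCA1+ controls and 3177 to 3280 after entinostat, against 3080.0 to 3240 in the controls and 2846 to 2869 after entinostat in the BRCA1-null line. The summed level of the 48 repair genes was 4306 to 4366 CPM, 4050.0 to 4107, 3854 to 3923 and 3701 to 3866 in the same order of groups, and only the BRCA1-null groups overlapped. The part of proliferation in the values of the 48 genes was not tested.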

How the data were processed

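Raw read counts per gene symbol were deposited by the authors as 1 table of 8 libraries, without normalisation. Per the labels and the study's methods the reads were aligned to hg19 with TopHat 2 and counted with NGSUtils; how strand and reads with several positions were handled is not given in the sources used here. Gene spans came from the same table and are counted from 1.

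The 48 genes, their roles and the comparison lists were chosen with earlier results of these data known, and 2 genes first listed for comparison are not reported here. Groups and replicate numbers came from the sample titles. Genes were kept by filterByExpr (17714), normalised with TMM factors and tested in 1 edgeR 4.0.16 quasi-likelihood fit (glmQLFit with legacy set to FALSE, R 4.3.3, limma 3.58.1) over the 4 groups, with 4 residual degrees of freedom, two-sided, with Benjamini-Hochberg adjustment over all genes tested. A gene was called at an adjusted p under 0.05. Adjusted p-values without another name come from this test. Each SE was derived from it, as the absolute log2 fold change divided by the square root of the F statistic. CPM are counts scaled to the same effective library size. A count of 3 was taken as the floor (0.0552 to 0.0946 CPM), which covers counting error only. Values in every library are given for up to 8 called genes with the largest absolute log2 fold change in each contrast between lines or treatments. RAD50, BRCA2 and PALB2 were named after their values were seen, and so were the genes given with their neighbours' values and the promoters printed.

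Each value was recomputed without the filter or with a minimum of 50 counts, with upper-quartile or DESeq2 size factors, by the likelihood ratio test of edgeR, its legacy quasi-likelihood estimate or the Wald test of DESeq2 1.42.0, in fits restricted to the groups compared, with a block for the replicate number, with an added log2 fold change of at least 0.5, with 10 neighbours on each side, and without each library in turn. The fit was also run on simulated data with 200 changed genes, far fewer than were called between the lines. That run is not used as support for any value here. Promoters and symbols came from RefSeq tables (GRCh38.p14) and were matched by symbol, so no coordinate was converted between builds.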

Additional observations from a re-analysis of the deposited data

Results flagged for a closer look

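For 3 of the 48 genes the entinostat libraries lay on opposite sides of their controls in the 2 lines, without overlap: below the controls in BRCA1+ cells and above them in BRCA1-null cells. That is 6.25% of the 48, beside 510 of all 17714 genes tested (2.88%) with libraries on opposite sides in either order. The difference between the effects was 0.26 on the log2 scale for FANCE, 0.16 for MRE11A and 0.12 for XRCC5. The interaction test called none of them (edgeR adjusted p = 0.967 for each). FANCE was at 8.85 and 8.82 CPM without and 8.33 and 7.95 with entinostat in BRCA1+ cells, against 6.99 and 6.49 without and 7.23 and 7.54 with it in BRCA1-null cells. MRE11A had an entinostat effect of -0.10 ± 0.059 (SE) in BRCA1+ cells and 0.05 ± 0.059 in the BRCA1-null line. XRCC5 had -0.07 ± 0.053 and 0.05 ± 0.053 in the same order. MRE11A and XRCC5 were called lower in BRCA1-null cells in both treatments, and FANCE in DMSO. With 2 libraries a group, single libraries that stand apart from their group could not be tested.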

How the results depend on the processing

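No called gene changed sign under any of the alternatives. FANCA, FANCD2, FANCG, MRE11A, NBN, RAD54L, RMI1, UBE2T, USP1 and XRCC5 were called between the lines in both treatments under each alternative, except where a log2 fold change of 0.5 was also required, and so were RAD51C, RIF1 and FANCB in DMSO. How many of all genes kept their calls in this way was not counted, so this does not set these genes apart. With a log2 fold change of 0.5 also required, 1 gene was higher and 4 were lower in DMSO, 1 and 3 in entinostat, and none was called for entinostat in either line (0 higher and 0 lower in each). Over all genes 24.8% and 23.2% were then called between the lines in DMSO and entinostat. For entinostat 6.73% in BRCA1+ and 5.98% in BRCA1-null cells were. In DMSO the line calls of TP53BP1, FANCE and FANCI were lost by the DESeq2 Wald test and with only the groups compared. That of TP53BP1 was also lost with upper-quartile factors. Over all genes these fits called 37.1%, 39.3% and 41.8% in DMSO, against 42.2%. For entinostat in BRCA1+ cells the number called higher was 1 without the filter, with the legacy estimate or with only the groups compared, against 2. Over all genes these fits called 10.4%, 14.6% and 15.3% in either direction, against 14.1%. In BRCA1-null cells it was 0 higher and 0 lower with only the groups compared, against 2 and 2, and 1 lower by the DESeq2 Wald test; over all genes that restricted fit called 712 against 1906. Leaving out each library gave 3 to 6 higher and 10 to 16 lower in DMSO, 2 to 5 and 9 to 11 in entinostat, 0 to 2 and 0 to 3 for entinostat in BRCA1+ cells, and 0 to 2 and 0 to 2 in BRCA1-null cells; the cause was not tested. Fewer of all genes, too, were called in each contrast between lines or treatments without any single library of the groups compared. Upper-quartile factors moved the share of higher calls for entinostat in BRCA1+ cells from 57.6% to 72.5% over all genes.

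With the replicate number as a block, 4 genes were higher and 7 lower with entinostat in BRCA1+ cells and 3 higher and 5 lower in BRCA1-null cells, and 24 and 18 were called between the lines in DMSO and entinostat. With the block UBE2T and NBN were, like TP53BP1, called in all 4 contrasts, and XRCC3 and GEN1 for entinostat in both lines. Over all genes the blocked fit called 4319 (24.4%) in BRCA1+ and 3641 (20.6%) in BRCA1-null cells for entinostat. Between the lines it called 50.5% of all genes in DMSO and 47.4% in entinostat. Deviations of same-numbered libraries correlated between groups by 0.05 to 0.29, below 0.1 in 2 of 6 pairs of groups. No label ties the numbers to a batch, and whether same-numbered libraries share one was not tested. The median of the 48 genes minus that of all genes was -0.05, -0.05, -0.06 and -0.06 in the 4 contrasts. Counts of 43 or more per library for DMC1, the least abundant gene, and of 157 or more for all others limited the precision of low genes, and 2 libraries a group limited it for all.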
